A study of Mus musculus with 14 samples.

Results

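Hepatic stellate cells (HSCs) kept for 64 h in valproic acid (VPA64h, 3 arrays) were set against HSCs kept for 4 h without it (Ctrl4h, 3 arrays), to describe how far treated cells lie from freshly plated ones. These are 6 of the 14 arrays of the study, chosen by their sample titles. All cells came from livers of BalbC mice with no genetic change, were freed of unattached cells and debris after a short attachment, and were cultured on plastic in serum-containing medium. The treated cells received 2.5 mM valproic acid from the wash onwards. Untreated cells after 64 h (Ctrl64h, 3 arrays) show where culture alone leads, and serve here to find genes that the treated cells hold at neither control level. The remaining arrays are VPA-treated cells at 4 h (VPA4h, 3 arrays) and untreated cells at 16 h (2 arrays). The study describes the repeats as independent biological experiments. Ctrl4h cells had already been isolated by enzymatic digestion and had attached to plastic, so Ctrl4h is a state of early culture and not the state in the liver.

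HSCs are the vitamin A-storing pericytes of the liver sinusoid. On plastic they lose their lipid droplets and turn into contractile, matrix-producing and dividing cells, the change that also occurs in liver fibrosis. Valproic acid inhibits histone deacetylases (HDACs), the enzymes that take acetyl groups off histone tails and other proteins.

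RNA levels come from Affymetrix whole-transcript arrays for mouse and are given on the log2 scale, so that a difference of 1 is a 2-fold change. The levels were made relative to all other genes of an array, and a change shared by most genes would not show. Of 35557 probe sets, 21789 carry exactly 1 gene symbol and are described here. A probe set was called different when limma gave an adjusted p under 0.05 and the groups lay at least 2-fold apart. All 14 arrays had their median level between 6.34 and 6.41. The values were quantile normalised, which brings arrays to a common distribution, so like medians cannot show whether an array stands apart.

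The identity of the cells was checked on marker genes. Desmin (Des), an intermediate filament of HSCs, measured 8.62, 8.60 and 8.56 in Ctrl4h and 9.72, 9.91 and 9.91 in VPA64h, and rose by 1.25 ± 0.08 (SE of the fit; adjusted p = 2.68e-09). Reln and Hgf, both secreted by HSCs, fell by 1.20 and 1.42. Of the 11 stellate cell markers measured, 1 was called higher and 2 lower, and their summed level (log2 of the summed linear levels) was 14.47 to 14.55 in Ctrl4h and 13.83 to 13.97 in VPA64h. Over all probe sets 6.82% were called higher and 2.29% lower than in Ctrl4h. Markers of other liver cells were also lower in places. Of 21 hepatocyte markers 2 were called lower, the serum proteins Trf and Alb, and the summed level went from 10.96 to 11.44 in Ctrl4h to 10.09 to 10.84 in VPA64h. Of 22 sinusoidal endothelial markers, Plvap, Cdh5 and Tie1 were called lower and Cd34 higher, with a summed level of 13.0 to 13.18 in Ctrl4h and 12.13 to 12.28 in VPA64h. Of 15 lymphocyte markers the chemokine gene Ccl5 was called lower, and their summed level was 9.62 to 10.3 and then 8.89 to 9.11. Of 21 Kupffer cell and macrophage markers none was called, 10 were lower at an adjusted p under 0.05 by less than 2-fold, and the summed level was 10.43 to 11.18 in Ctrl4h and 10.48 to 11.04 in VPA64h. With no limit on the fold, 6723 of all 21789 probe sets were lower at that adjusted p. Of 17 markers of cholangiocytes, mesothelium and portal fibroblasts, Fbln2 and Thy1 were called higher, and the summed level was 10.36 to 10.7 and 10.89 to 11.37. In such bulk RNA fewer cells of a type and less RNA per cell cannot be told apart, and the part of these cells in the results that follow was not tested. The level for Alb rests on variable arrays: it was 7.89, 9.0 and 8.04 in Ctrl4h and 6.93, 7.83 and 6.89 in VPA64h, so that the groups almost met (difference -1.09, adjusted p = 0.0386), and the call was lost without Ctrl4h replicate 2, without VPA64h replicate 1 or without VPA64h replicate 3, and also with a trended, robust variance prior and with the variance test of the methods. The call for Cdh5 was lost without Ctrl4h replicate 1, and that for Tie1 without Ctrl4h replicate 1 or VPA64h replicate 2.

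After 64 h in valproic acid the cells were about as far from Ctrl4h as untreated cells of that age. Each of the 9 pairs of a VPA64h and a Ctrl4h array had 2072 to 2325 probe sets at least 2-fold apart (median 2151). The 9 pairs of Ctrl64h and Ctrl4h arrays had 2032 to 2356 (median 2174), and the 2 ranges overlap almost fully. VPA64h and Ctrl64h arrays were 390 to 613 probe sets apart (median 501), and arrays of the same group 5 to 54. Over all 21789 probe sets the root mean square difference from Ctrl4h was 0.608 for VPA64h and 0.615 for Ctrl64h, while the 2 groups of 64 h differed from each other by 0.334.

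**Figure D1:**
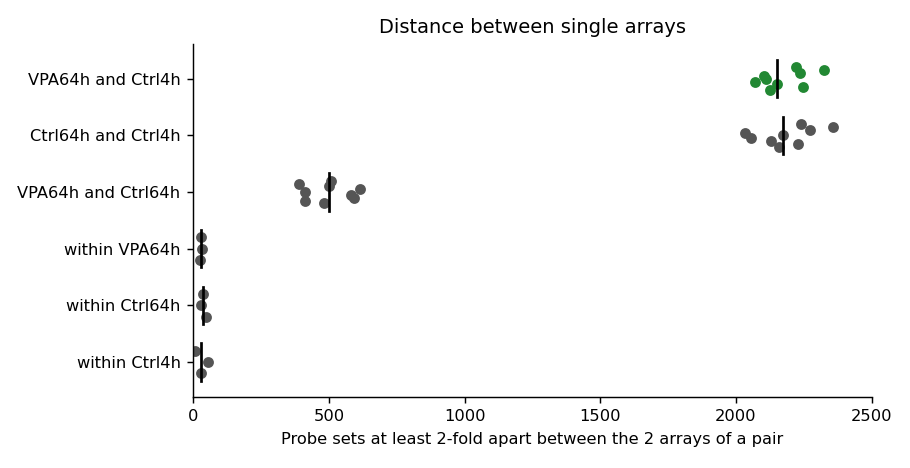
Number of probe sets at least 2-fold apart for each pair of arrays, with a point per pair, rows for the kinds of pair and a black bar at the median of the row. Pairs of VPA64h and Ctrl4h arrays lie at 2072 to 2325 probe sets, in the range of the pairs of Ctrl64h and Ctrl4h arrays (2032 to 2356) and above those of VPA64h and Ctrl64h arrays (390 to 613).

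The direction of the displacement was described by projecting each VPA64h array on the line from the mean of Ctrl4h to the mean of Ctrl64h. The 3 arrays had gone 82.8% to 86.7% of that way, with a root mean square distance of 0.319 to 0.358 at right angles to it. A Ctrl64h array that was left out of the mean lay at 95.6% to 99.1%, with 0.177 to 0.194 at right angles, and on those same lines the VPA64h arrays lay at 80.8% to 86.5% and 0.321 to 0.369. When the line was drawn from a single Ctrl4h array and the start was taken from the others, the VPA64h arrays lay at 74.5% to 83.9%. On the lines drawn without a Ctrl64h array, the treated arrays were thus short of the untreated one along the culture line and farther off it. These positions are descriptions of 3 arrays a group, with no test.

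Probe by probe, 1486 of 21789 probe sets were called higher in VPA64h than in Ctrl4h (6.82%) and 499 lower (2.29%). These 2 shares are the background for each count of list members called between VPA64h and Ctrl4h below. Counts for the other comparisons have the shares given next as their background. Untreated culture gave 1506 higher (6.91%) and 536 lower (2.46%) against the same Ctrl4h arrays, which both comparisons share. VPA64h against Ctrl64h gave 163 higher (0.748%) and 244 lower (1.12%). The 1985 probe sets called between VPA64h and Ctrl4h stand for 1890 gene symbols. Of them 210 were at least 4-fold higher and 58 at least 4-fold lower, and among the largest differences the directions were balanced, with 13 probe sets at least 8-fold higher and 14 at least 8-fold lower. The 1985 fell into 1805 that were not called between VPA64h and Ctrl64h and 180 that were called against both controls.

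Nearness to Ctrl4h was read from the interval of the difference, since a missed threshold does not show that levels are alike. For 18414 probe sets (84.5%) the 95% interval of VPA64h minus Ctrl4h lay inside a 2-fold change in either direction. A further 1390 were neither called nor held inside that interval, and for these the arrays do not settle the question.

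The largest decreases were in inflammatory genes. Cxcl1, a chemokine that attracts neutrophils, measured 11.55, 10.72 and 10.58 in Ctrl4h and 6.96, 5.91 and 6.05 in VPA64h, a 25-fold lower level (log2 difference -4.64 ± 0.30, adjusted p = 2.78e-09). Ccl2, which attracts monocytes, went from 12.30, 11.91 and 11.69 to 8.20, 7.82 and 7.46, a 17.7-fold lower level (adjusted p = 1.19e-09). Its neighbour in function, Ccl7, was 19.4-fold lower, with 12.29, 11.65 and 11.48 against 7.91, 7.33 and 7.35. In all of these the lowest Ctrl4h array lay far above the highest VPA64h array. Arrays without overlap were a condition for naming the largest differences, and 1984 of the 1985 called probe sets met it. Cxcl2 measured 11.22, 10.03 and 9.19 in Ctrl4h and 6.86, 5.77 and 5.39 in VPA64h, and its wide spread over the Ctrl4h arrays gave a standard error of 0.50 around a difference of -4.14. Cxcl5 likewise spread from 8.69 to 10.44 in Ctrl4h and measured 6.02 to 6.26 in VPA64h (11.5-fold lower). Cxcl10, an interferon-induced chemokine, was 10.1-fold lower and Cxcl16 8.87-fold lower.

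Of the 26 chemokine and NF-kB response genes measured, 19 were called lower and none higher, with a median difference of -2.18 against -0.10 over all probe sets. Untreated culture gave a median of -1.73 and 18 called lower, so both 64 h groups stood far below Ctrl4h. Cxcl1 in Ctrl64h measured 6.39, 6.38 and 6.13, which overlaps the treated arrays. Il6, the gene for the cytokine interleukin-6, was the member below both controls. It measured 7.93, 6.67 and 7.61 in Ctrl4h, 6.88, 6.12 and 6.24 in Ctrl64h, and 4.92, 4.95 and 4.09 in VPA64h (difference from Ctrl4h -2.75 ± 0.31, adjusted p = 1.59e-06). In VPA4h it measured 5.33, 5.21 and 6.0, below every Ctrl4h array. Il11, a cytokine of the same family that acts on fibroblasts, was 8.4-fold lower in VPA64h than in Ctrl4h.

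**Figure D2:**
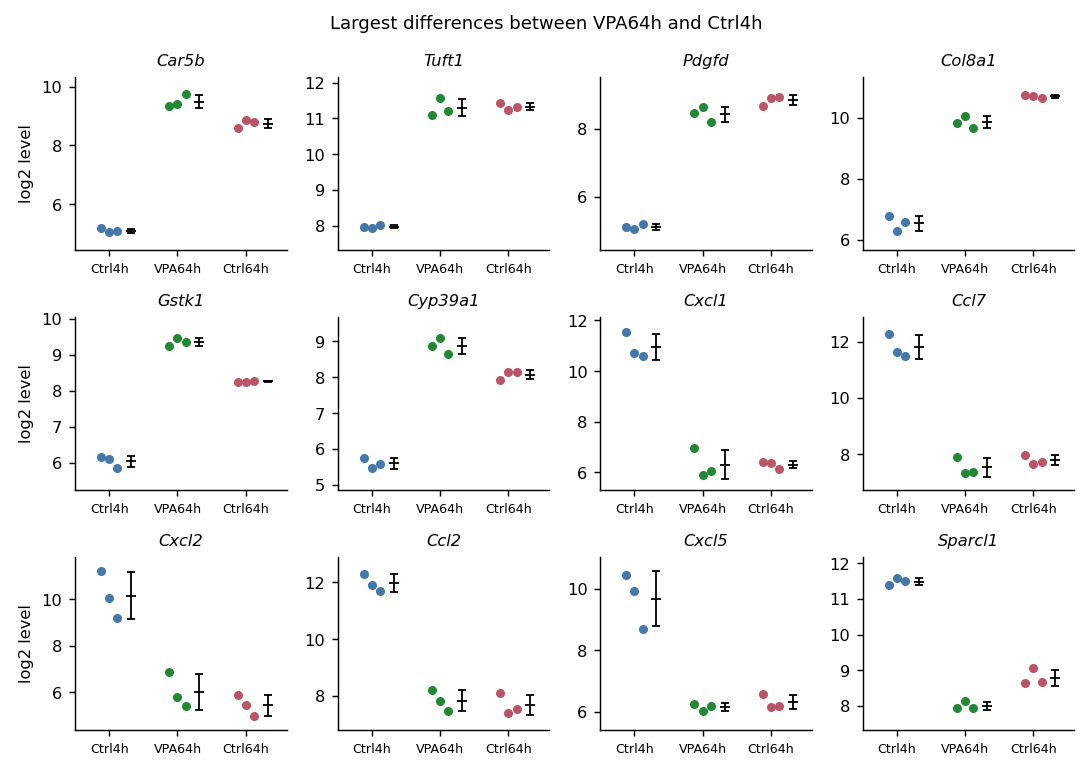
Log2 level on each array (points) and mean with SD (black) in Ctrl4h, VPA64h and Ctrl64h, n = 3 each, for the 6 largest increases and the 6 largest decreases of VPA64h against Ctrl4h, with a separate axis range in each panel. Cxcl1 lies between 10.58 and 11.55 in Ctrl4h and between 5.91 and 6.96 in VPA64h, and Car5b between 5.05 and 5.18 and between 9.34 and 9.74.

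Immediate early genes, which cells induce within minutes of a stimulus and which are high in recently isolated cells, were also lower. Of 29 measured, 13 were called lower and none higher (median -0.71), where 2.29% of all probe sets were called lower and 6.82% higher. Fosb, a subunit of the transcription factor AP-1, measured 9.12, 8.89 and 9.38 in Ctrl4h and 6.08, 6.04 and 6.15 in VPA64h, an 8.23-fold lower level (adjusted p = 6.02e-11). Myc, a transcription factor of cell growth, was 7.73-fold lower and the AP-1 subunit Fosl1 5.71-fold lower. Neither group of arrays overlapped the other for these 3 genes. Atf3, a stress-induced factor of the same kind, measured 9.08, 8.80 and 8.87 in Ctrl4h, 8.52, 8.14 and 7.95 in VPA64h and 7.49, 7.34 and 7.39 in Ctrl64h, and its interval for VPA64h minus Ctrl4h lay within 2-fold.

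Among 19 stress genes (amino acid shortage, heat shock and unfolded proteins), 10 were called lower and 1 higher, with a median of -1.12 against -0.67 in untreated culture. The shares over all probe sets were 2.29% lower and 6.82% higher. Herpud1, which helps clear misfolded proteins from the endoplasmic reticulum, measured 11.31, 11.34 and 11.10 in Ctrl4h, 10.03, 10.13 and 10.07 in Ctrl64h and 8.80, 8.92 and 8.70 in VPA64h. The 3 groups formed separate steps, and the treated cells were 5.44-fold below Ctrl4h. In VPA4h the gene measured 9.79, 9.95 and 9.84, below every Ctrl4h array. Trib3, a pseudokinase induced by stress, was 4.97-fold lower, Chac1, which breaks down glutathione, 4.86-fold lower, and Sesn2 3.43-fold lower.

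Markers of quiescent stellate cells stood in part below the Ctrl4h level. Of 20 measured, 7 were called lower in VPA64h and none higher, with a median of -0.79; in untreated culture 9 were called lower and the median was -0.96. The list was drawn up with earlier results known, and part of its members are named in the study. Colec11, a soluble lectin, measured 9.66, 9.72 and 9.56 in Ctrl4h, 6.31, 6.85 and 6.55 in VPA64h and 6.96, 7.27 and 6.59 in Ctrl64h, so that the treated arrays overlapped the untreated ones of that age. Angptl6, a secreted angiopoietin-like protein, was 8.81-fold lower than in Ctrl4h and Rgs5, a regulator of G protein signalling in pericytes, 3.70-fold lower. Sparcl1, a matricellular protein that is not on this list, was 11.2-fold lower, at 11.38, 11.58 and 11.49 against 7.93, 8.13 and 7.94. Ntm (neurotrimin), a cell adhesion molecule, measured 8.18, 8.30 and 7.96 in Ctrl4h, 7.24, 7.09 and 7.11 in VPA64h and 5.83, 5.66 and 5.38 in Ctrl64h, and its difference from Ctrl4h of -1.0 (adjusted p = 9.35e-06, no overlap between the groups) fell just short of the 2-fold limit. Plxnc1 (plexin C1), a semaphorin receptor, measured 6.92, 7.07 and 6.82 in Ctrl4h and 7.07, 7.19 and 7.21 in VPA64h (difference 0.22, adjusted p = 0.103).

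The increases were led by Car5b, a mitochondrial carbonic anhydrase. It measured 5.18, 5.05 and 5.07 in Ctrl4h and 9.34, 9.40 and 9.74 in VPA64h, a 21.0-fold higher level (log2 difference 4.39 ± 0.12, adjusted p = 1.98e-12). In Ctrl64h it measured 8.59, 8.86 and 8.78, below each treated array. Col8a1, a short-chain collagen, rose 9.98-fold, from 6.77, 6.27 and 6.58 to 9.82, 10.07 and 9.68, and Pdgfd, a ligand of the PDGF receptor beta, 9.95-fold, from 5.10, 5.04 and 5.21 to 8.45, 8.64 and 8.20. In Ctrl64h Col8a1 was higher still, at 10.76, 10.73 and 10.65. Tuft1 rose 10.0-fold, the glutathione transferase Gstk1 9.94-fold, and the oxysterol hydroxylase Cyp39a1 9.62-fold. Pkia, an inhibitor of protein kinase A, rose 9.14-fold and Hacd4, an enzyme of fatty acid elongation, 8.51-fold. Zdhhc2, which attaches palmitate to proteins, and Cmbl, a hydrolase, both rose 8.07-fold.

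**Figure D3:**
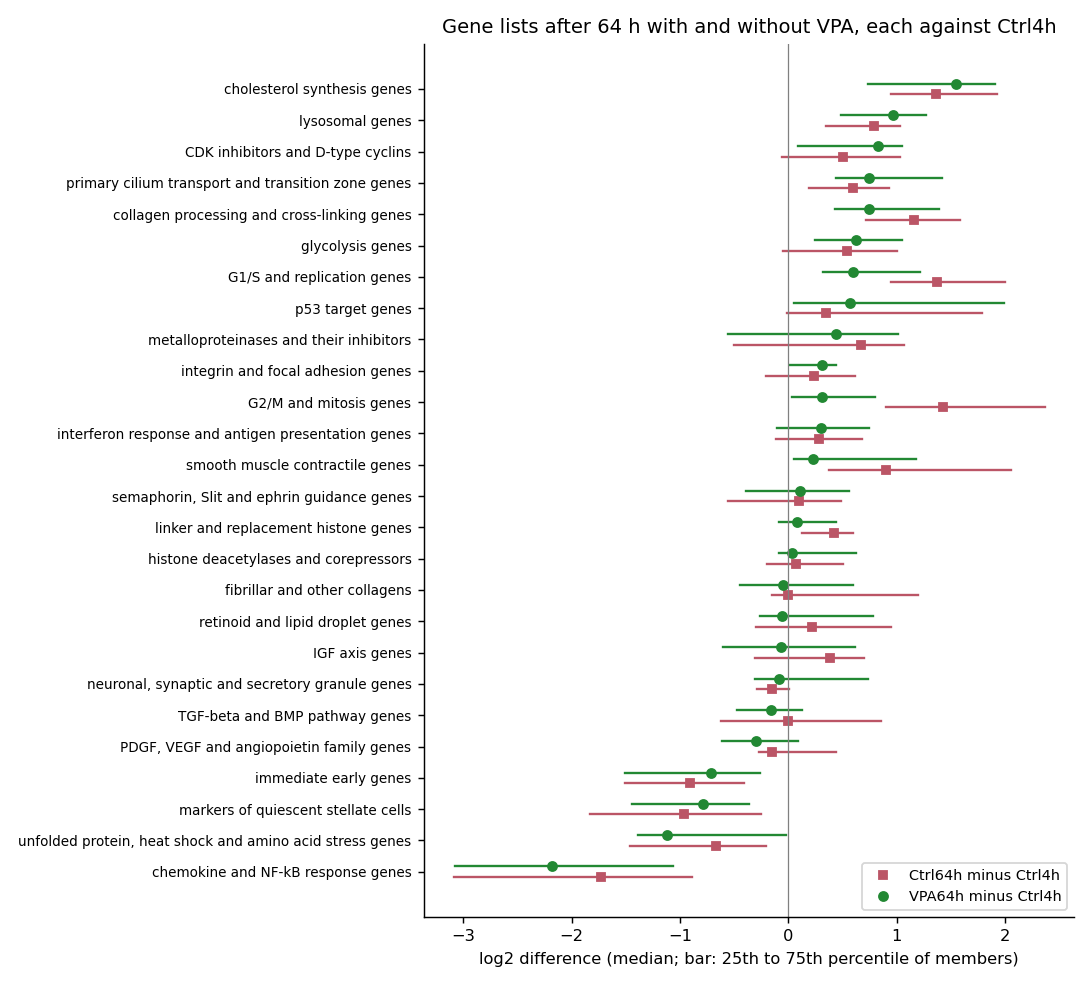
Median log2 difference (points) and 25th to 75th percentile of the members (bars) for each gene list, for VPA64h minus Ctrl4h in green and Ctrl64h minus Ctrl4h in red, which share the Ctrl4h arrays. The green median is 1.55 for cholesterol synthesis and -2.18 for chemokine and NF-kB response genes, and it lies at 0.31 for G2/M and mitosis genes where the red one lies at 1.43.

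Cholesterol synthesis stood well above Ctrl4h. Of 19 genes measured 12 were called higher and none lower (median 1.55, against -0.10 over all probe sets), and untreated culture gave 14 and 1.36. Lss, which closes the sterol ring system, measured 6.10, 6.32 and 6.20 in Ctrl4h and 8.20, 8.30 and 8.29 in VPA64h (4.15-fold, adjusted p = 3.6e-11). Fdps, which makes farnesyl diphosphate, rose 4.13-fold, and Fdft1, squalene synthase, 4.09-fold. No member was called between the 2 groups of 64 h. Over all probe sets that comparison called 0.748% higher and 1.12% lower, so a list of this size can hold no call without standing apart.

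Lysosomal genes followed, with 10 of 22 called higher, 1 lower and a median of 0.97, where 6.82% of all probe sets were called higher and 2.29% lower. Lipa, lysosomal acid lipase, measured 8.81, 8.59 and 8.63 in Ctrl4h and 10.77, 10.79 and 10.90 in VPA64h, 4.42-fold higher. Ctsa, a protective carboxypeptidase, rose 3.81-fold and Asah1, acid ceramidase, 3.69-fold. The member that fell was Ctsk, cathepsin K, a collagen-degrading protease that is described with the genes below both controls. Of 17 glycolysis genes 6 were called higher and 1 lower: the phosphofructokinase Pfkm rose 4.66-fold and the isomerase Tpi1 4.23-fold, while Hk2, hexokinase 2, fell by 1.33 on the log2 scale.

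Of 17 targets of p53, the transcription factor of the DNA damage response, 6 were called higher and 2 lower (median 0.57). The shares over all probe sets were 6.82% higher and 2.29% lower. Ccng1, cyclin G1, measured 9.04, 8.80 and 8.84 in Ctrl4h and 11.47, 11.48 and 11.42 in VPA64h, with 11.41, 11.38 and 11.45 in Ctrl64h, so the arrays of 64 h lay together. Eda2r, a receptor of the TNF receptor family, rose 5.79-fold, Trp53inp1 5.31-fold and Phlda3, an inhibitor of AKT, 4.19-fold. Among 11 CDK inhibitors and D-type cyclins 3 were called higher, of which Cdkn2c rose 3.26-fold and Cdkn2d 2.55-fold. Cdkn1a, which is on both lists, and the p53 targets Gdf15 and Bax had no probe set with exactly 1 symbol and are not among the genes counted.

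Cell cycle genes were above Ctrl4h by less than in untreated culture. Of 23 G1/S and replication genes 8 were called higher in VPA64h with a median of 0.60, and 15 in Ctrl64h with a median of 1.37. Of 23 G2/M and mitosis genes 5 were called higher in VPA64h with a median of 0.31, and 15 in Ctrl64h with a median of 1.43. Set directly against Ctrl64h, 4 G1/S genes and 12 G2/M genes were called lower in VPA64h and none higher, where 1.12% of all probe sets were called lower and 0.748% higher. Prim1, the DNA primase catalytic subunit, measured 4.68, 4.72 and 4.70 in Ctrl4h, 7.31, 7.21 and 7.20 in VPA64h and 7.58, 7.5 and 7.52 in Ctrl64h. Cdk1, the mitotic kinase, measured 6.39, 6.31 and 6.26, then 7.75, 8.05 and 7.68, and in Ctrl64h 8.76, 8.68 and 8.80. Bub1, a kinase of the spindle checkpoint, measured 4.26, 4.35 and 4.11 in Ctrl4h, 4.74, 4.87 and 5.18 in VPA64h and 6.85, 6.66 and 6.71 in Ctrl64h. These 3 genes show the range: Prim1 differed from Ctrl64h by -0.30, Cdk1 lay between the controls without reaching 2-fold from Ctrl64h, and Bub1 was within 2-fold of Ctrl4h.

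Contractile genes showed the same range. Of 18 measured, 5 were called higher in VPA64h and 1 lower, with a median of 0.23, against 9, 1 and 0.90 in untreated culture. Acta2, alpha smooth muscle actin, measured 10.35, 10.02 and 10.05 in Ctrl4h, 11.75, 11.98 and 11.68 in VPA64h and 12.95, 12.99 and 12.97 in Ctrl64h, and was called against both controls. Tpm2, a tropomyosin, rose 4.47-fold over Ctrl4h and Myl9, a myosin light chain, 3.48-fold. Myh11, smooth muscle myosin heavy chain, measured 7.34, 7.40 and 7.72 in Ctrl4h, 7.54, 7.35 and 7.21 in VPA64h and 9.69, 9.62 and 9.44 in Ctrl64h. Its difference from Ctrl4h was -0.12 (adjusted p = 0.538), and the treated arrays overlapped those of Ctrl4h. Actg2, enteric smooth muscle actin, gave 6.54, 6.56 and 6.89 in Ctrl4h, 6.47, 6.78 and 6.93 in VPA64h and 9.24, 9.04 and 9.09 in Ctrl64h. Non-muscle myosin did not follow: Myh10 rose 4.17-fold in VPA64h and differed from Ctrl64h by 0.0, and Myh9 differed from Ctrl4h by -0.36.

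The matrix genes were split. Of 19 collagens 3 were called higher and 1 lower, with a median of -0.05, beside 6.82% higher and 2.29% lower over all probe sets. Besides Col8a1, Col12a1 rose 2.98-fold and the fibrillar Col5a2 2.74-fold. Col1a1, a chain of the main scar collagen, measured 11.17, 10.32 and 10.71 in Ctrl4h, 11.28, 11.30 and 11.38 in VPA64h and 12.04, 11.97 and 12 in Ctrl64h, a difference from Ctrl4h of 0.59 (adjusted p = 0.0104) that is under 2-fold. Col3a1 measured 11.16, 10.70 and 10.57 in Ctrl4h, 10.02, 10.72 and 10.04 in VPA64h and 12.09, 12.50 and 12.36 in Ctrl64h, with overlap between the treated and the Ctrl4h arrays. Genes that process and cross-link collagen stood higher, with 7 of 15 called and a median of 0.75, against 8 and 1.16 in untreated culture. The prolyl hydroxylases P4ha1 and P4ha2 rose 2.97-fold and 2.78-fold, and differed from Ctrl64h by 0.06 and 0.02. Among 16 metalloproteinases and their inhibitors 4 were called higher and 3 lower. Mmp10, stromelysin 2, rose 4.50-fold and Timp1, an inhibitor of metalloproteinases, 2.53-fold, while Mmp13, a collagenase, fell by 1.92 and Mmp19 by 1.74. Mmp9, gelatinase B, measured 5.61, 5.64 and 5.86 in Ctrl4h and 5.09, 5.17 and 5.11 in VPA64h, a difference of -0.58 that did not reach 2-fold. Adamts4, which cleaves aggrecan, was 8.09-fold lower.

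Retinoid and lipid droplet genes gave 5 of 23 called higher and 1 lower, beside 6.82% higher and 2.29% lower over all probe sets. Aldh1a1, which makes retinoic acid, measured 10.21, 10.51 and 10.26 in Ctrl4h and 12.75, 12.85 and 12.69 in VPA64h (5.41-fold), and the lipid droplet coat protein Plin2 rose 3.41-fold. Rdh10, a retinol dehydrogenase, was 3.99-fold lower. Lrat, which esterifies retinol for storage, measured 6.95, 7.53 and 7.21 in Ctrl4h and 7.85, 7.98 and 7.90 in VPA64h, a difference of 0.68 that stayed under 2-fold (adjusted p = 0.00833).

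Among signalling genes, Bmp4, a growth factor of the TGF-beta superfamily, rose 5.98-fold, and its relative Bmp2 was 4.44-fold lower, at 11.36, 11.02 and 10.71 against 8.79, 8.79 and 9.06. Id2 and Id1, inhibitors of helix-loop-helix factors that BMPs induce, rose 4.56-fold and 2.84-fold. The whole list of 26 TGF-beta and BMP pathway genes had 3 called higher and 1 lower, beside 6.82% higher and 2.29% lower over all probe sets. Of 18 PDGF, VEGF and angiopoietin family genes 3 were called higher and 2 lower, with Pdgfa 3.01-fold lower beside the rise of Pdgfd. Of 21 interferon response and antigen presentation genes 4 were called higher, among them Usp18 (3.55-fold), Stat2 (2.98-fold) and Ddx58 (2.30-fold), and 1 lower. That gene, the transcription factor Irf1, measured 9.49, 9.27 and 8.72 in Ctrl4h and 8.11, 8.24 and 8.04 in VPA64h, and lost its call without Ctrl4h replicate 1, Ctrl4h replicate 2 or VPA64h replicate 3. A second probe set of Irf1 differed by -0.32 and was not called. Of 15 IGF axis genes 1 was called higher, Igf2r, and 1 lower, Igfbp3, both described with the genes at neither control level. Of 23 integrin and focal adhesion genes 2 were called higher and 2 lower: Itga3 rose 3.23-fold, Itgb5 rose 2.00-fold, Itga9 was 2.66-fold lower and Itga5 2.46-fold lower. The call for Itgb5 sat on the 2-fold limit and was lost without Ctrl4h replicate 1, VPA64h replicate 2 or VPA64h replicate 3, and with arrays centred on housekeeping genes. Of 26 semaphorin, Slit and ephrin guidance genes 1 was called higher, the ephrin receptor Epha3, and 2 lower, Plxnd1 and Sema6d. The counts called higher in the IGF, integrin and guidance lists lie near the share over all probe sets and show nothing particular to those lists. The same shares, 6.82% higher and 2.29% lower, stand beside the other counts of this paragraph.

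Of 22 histone deacetylases and corepressors, the family of the enzymes that the drug acts on, 3 were called higher and none lower, where 6.82% of all probe sets were called higher. Hdac6, the cytoplasmic deacetylase of tubulin, rose 2.65-fold, and the nuclear Hdac3 and Hdac1 rose 2.47-fold and 2.28-fold. Hdac1 measured 9.24, 9.33 and 9.10 in Ctrl4h, 10.33, 10.51 and 10.39 in VPA64h and 10.02, 10.07 and 10.03 in Ctrl64h. Of 10 linker and replacement histone genes none was called in either direction by limma, while with no limit on the fold 4 stood above and 2 below Ctrl4h at an adjusted p under 0.05. At that looser limit 5546 of all 21789 probe sets stood above Ctrl4h and 6723 below, so these counts do not set the histone genes apart.

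Primary cilium genes were looked at after several of them had been seen among the genes above both controls, so that their count is a description of a list added later. The cilium is the single antenna of many cell types, built by intraflagellar transport and guarded at its base by the transition zone. Of 61 such genes measured, 22 were called higher in VPA64h than in Ctrl4h (6.82% of all probe sets were) and none lower, with a median of 0.75. In untreated culture 14 were called higher and the median was 0.60. Wdr35, a subunit of the retrograde transport complex, measured 5.77, 5.87 and 5.84 in Ctrl4h, 7.37, 7.22 and 7.34 in Ctrl64h and 8.29, 8.26 and 8.46 in VPA64h (5.70-fold over Ctrl4h, adjusted p = 5.06e-12). Ift80, of the anterograde complex, measured 5.55, 5.64 and 5.47, then 6.81, 6.85 and 6.78 in Ctrl64h and 7.80, 7.93 and 8.10 in VPA64h. Cep290, a transition zone protein, rose 4.82-fold over Ctrl4h and Ttc26 4.78-fold. For these genes the 3 groups formed 3 steps, where the top place of the treated cells is set by membership above both controls. Of the 61, 7 were above both controls, beside 0.441% of all probe sets, the other 3 being Tmem231, Bbs9 and Ahi1. The list was added because such genes had been seen in that class, so this count is no independent evidence.

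At neither control level lay 180 probe sets. Of these, 96 (0.441% of all) were above both controls, 38 (0.174%) below both, 27 (0.124%) between the controls after a rise in culture and 19 (0.0872%) between them after a fall. Membership was set by the calls, so the differences that follow describe the members and are no further test. The comparisons share the VPA64h arrays.

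The 96 probe sets above both controls stand for 93 symbols, and their median difference was 1.73 from Ctrl4h and 1.29 from Ctrl64h. The promoters of Serpini1 and Elovl4, the first members in order of the smaller of both differences with an entry in the promoter table, are shown as the 250 bases before the start of the gene (RefSeq, GRCm38.p6, 5′ to 3′ on the strand of the gene), to set beside those of 2 genes that fell below both. Capitals mark matches, on either strand, to CCAAT (the CCAAT box), to GGGCGG (the core of the GC box) or to TATAAA (the core of the TATA box). Serpini1 lies at chr3:75557243-75557492 on the plus strand and Elovl4 at chr9:83806306-83806555 on the minus strand.
Serpini1: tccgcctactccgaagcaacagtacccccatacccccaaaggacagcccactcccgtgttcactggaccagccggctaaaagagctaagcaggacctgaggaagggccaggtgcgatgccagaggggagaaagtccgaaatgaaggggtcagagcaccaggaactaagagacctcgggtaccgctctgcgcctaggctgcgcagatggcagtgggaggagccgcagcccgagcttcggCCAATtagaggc
Elovl4: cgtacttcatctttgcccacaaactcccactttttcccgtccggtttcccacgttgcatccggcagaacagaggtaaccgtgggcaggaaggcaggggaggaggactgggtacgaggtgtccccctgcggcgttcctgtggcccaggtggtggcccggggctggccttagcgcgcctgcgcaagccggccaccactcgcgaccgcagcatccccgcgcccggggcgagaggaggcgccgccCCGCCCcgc

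Serpini1, the neuronal serpin that inhibits tissue plasminogen activator, measured 6.46, 6.92 and 6.54 in Ctrl4h, 7.08, 6.73 and 6.85 in Ctrl64h and 9.21, 9.22 and 9.08 in VPA64h. The controls overlapped each other, and every treated array lay above every control array. Elovl4, which elongates very long-chain fatty acids, measured 6.07, 6.41 and 6.21 in Ctrl4h, 5.94, 6.07 and 6.25 in Ctrl64h and 8.31, 8.17 and 8.32 in VPA64h. Mpp7, a scaffold protein of cell junctions, had the largest smaller difference: its first probe set measured 4.66, 5.01 and 5.28 in Ctrl4h, 5.40, 5.65 and 5.83 in Ctrl64h and 8.05, 8.12 and 8.18 in VPA64h. A second Mpp7 probe set was above both as well, by 2.14 and 1.78. Gsta4, which detoxifies lipid peroxidation products, was 7.83-fold above Ctrl4h. Tubb2b, a neuronal beta-tubulin, measured 5.62, 5.89 and 5.68 in Ctrl4h, 5.59, 6.04 and 5.94 in Ctrl64h and 7.93, 8.13 and 8.06 in VPA64h, again with overlapping controls. Sort1, the sorting receptor sortilin, was 4.26-fold and Cacng7, a subunit of calcium channels and glutamate receptors, 4.04-fold above Ctrl4h. The study lists Sort1 among the VPA-sensitive genes it found in these arrays. Akr1c18, a steroid dehydrogenase, rested on unequal arrays: VPA64h measured 5.56, 5.19 and 7.96 beside 3.96 to 4.01 in Ctrl4h, and the difference of 2.26 was 1.40 without VPA64h replicate 3.

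Of 32 neuronal, synaptic and secretory granule genes 7 were called higher than Ctrl4h and none lower, and all 7 were above both controls. Over all probe sets 6.82% were called higher and 0.441% were above both. The list as a whole had a median of -0.09, beside -0.10 for all probe sets. Syt11, a synaptotagmin of vesicle traffic, measured 5.86, 5.61 and 5.94 in Ctrl4h, 6.66, 6.88 and 6.64 in Ctrl64h and 8.41, 8.59 and 8.24 in VPA64h. Aplp1, an amyloid precursor-like membrane protein, Uchl1, a neuronal ubiquitin hydrolase, and Ptprn, a secretory granule phosphatase-like protein, were 3.49-fold, 3.46-fold and 3.10-fold above Ctrl4h. These 3 and Plat, tissue plasminogen activator, are genes that the study picked from these arrays, and their direction is no independent evidence. Plat measured 8.18, 7.82 and 7.81 in Ctrl4h, 7.34, 7.25 and 7.44 in Ctrl64h and 9.59, 9.52 and 9.37 in VPA64h, so that culture alone took it the other way. Other members were Igf2r, the receptor that carries IGF2 and lysosomal enzymes (3.97-fold above Ctrl4h), Eno2, the neuronal enolase (2.89-fold), and the surface proteins Thy1 (2.99-fold) and Cd34 (2.62-fold). Thy1 and Cd34 also stand on the lists of portal fibroblast and endothelial markers, of which the other members called are given with the marker check.

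**Figure D4:**
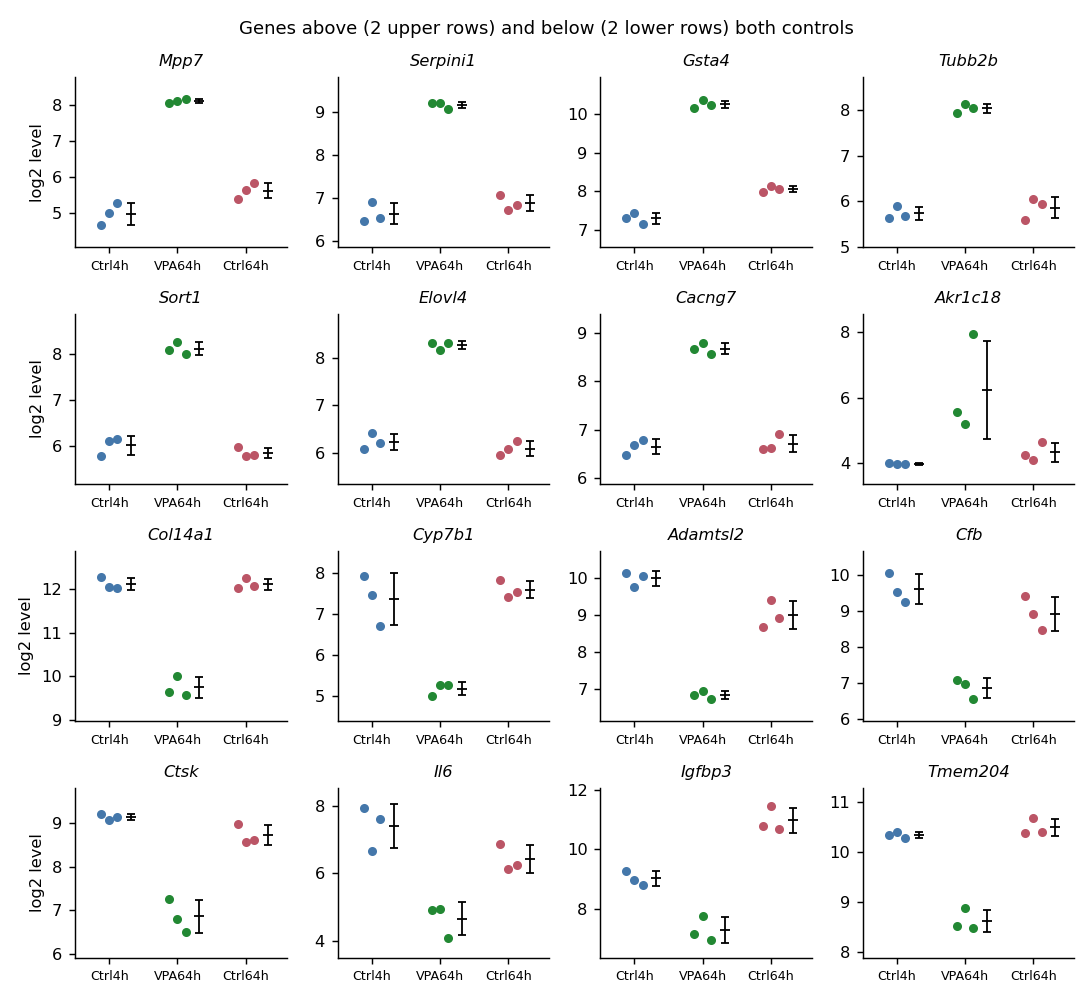
Log2 level on each array (points) and mean with SD (black) in Ctrl4h, VPA64h and Ctrl64h, n = 3 each, for the 8 genes farthest above both controls and the 8 farthest below both by the smaller difference, with a separate axis range in each panel. Serpini1 lies between 6.46 and 7.08 in the 2 controls and between 9.08 and 9.22 in VPA64h, and Akr1c18 has a single high VPA64h array at 7.96.

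The 38 probe sets below both controls, 38 symbols, had a median difference of -1.48 from Ctrl4h and -1.33 from Ctrl64h. The promoters shown, chosen in the same way, are those of Adamtsl2 at chr2:27079129-27079378 and Ctsk at chr3:95498960-95499209, both on the plus strand.
Adamtsl2: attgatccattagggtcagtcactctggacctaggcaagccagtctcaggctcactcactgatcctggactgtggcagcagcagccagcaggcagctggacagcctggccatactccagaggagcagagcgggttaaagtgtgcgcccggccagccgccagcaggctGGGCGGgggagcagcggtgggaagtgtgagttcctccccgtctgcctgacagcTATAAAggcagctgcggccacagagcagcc
Ctsk: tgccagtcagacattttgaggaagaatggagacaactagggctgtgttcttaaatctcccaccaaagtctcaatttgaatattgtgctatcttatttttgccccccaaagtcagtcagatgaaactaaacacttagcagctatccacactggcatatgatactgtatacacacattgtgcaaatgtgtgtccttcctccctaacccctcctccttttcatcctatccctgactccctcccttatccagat

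Adamtsl2, a secreted protein that binds fibrillin, measured 10.13, 9.77 and 10.06 in Ctrl4h, 8.68, 9.40 and 8.92 in Ctrl64h and 6.83, 6.96 and 6.74 in VPA64h. It is also on the list of quiescent stellate cell markers, and the treated cells lay 8.86-fold below Ctrl4h. Ctsk measured 9.20, 9.07 and 9.14 in Ctrl4h, 8.98, 8.56 and 8.61 in Ctrl64h and 7.26, 6.81 and 6.51 in VPA64h. Col14a1, a collagen that sits on fibrils, measured 12.28, 12.05 and 12.02 in Ctrl4h, 12.02, 12.25 and 12.07 in Ctrl64h and 9.64, 10.01 and 9.57 in VPA64h, so that the controls lay together and the treated cells were 5.20-fold lower. Cyp7b1, an oxysterol hydroxylase, was 4.54-fold, and Tmem204, a claudin-like membrane protein, 3.30-fold below Ctrl4h. Cfb, complement factor B, measured 10.06, 9.51 and 9.25 in Ctrl4h, 9.40, 8.90 and 8.46 in Ctrl64h and 7.08, 6.98 and 6.55 in VPA64h. Igfbp3, which binds insulin-like growth factors and is the gene that the study took further, measured 9.28, 8.96 and 8.81 in Ctrl4h, 10.78, 11.46 and 10.67 in Ctrl64h and 7.15, 7.77 and 6.95 in VPA64h. It had risen in untreated culture and lay 3.31-fold under the starting level in treated cells. Apoe, apolipoprotein E, differed by -2.90 from Ctrl4h and by -1.15 from Ctrl64h, the matrix protein gene Dpt by -2.97 and -1.0, and Tcf21, a transcription factor of HSCs and other pericytes, by -1.33 and -1.32. These last 3 were named after their values were seen.

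These motifs were searched on both strands in the 250 bases before the start, together with the AP-1 motif TGAGTCA, the cyclic AMP response motif TGACGTCA and the CArG box of serum response factor. Of 73 genes above both controls with an entry, 46 held GGGCGG (63.0%), and of 24 below both, 6 did (25%). Of the 15563 genes with an entry that the described probe sets stand for, 46.1% held it. TATAAA stood in 2 promoters above both (2.74%), in 3 below both (12.5%) and in 11.2% of those 15563. CCAAT was found in 38.4% of those above both and 25% of those below both, against 35.5%. TGAGTCA was in 4 above both (5.48%) and 2 below both (8.33%), against 3.93% of those 15563. TGACGTCA was in 4 above both (5.48%) and none below both, against 2.13%. The CArG box was in none of either class, against 1.25%. At shares this small, sets of this size can hold no match without standing apart. Of the promoters shown, that of Elovl4 holds GGGCGG on the opposite strand 9 bases before the start, that of Serpini1 CCAAT 12 bases before it, and that of Adamtsl2 TATAAA 30 and GGGCGG 83 bases before it. No match printed overlaps another. A match is a run of letters and not a site in use.

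Between the controls after a rise in culture lay 27 probe sets, that is, genes higher than in Ctrl4h and lower than in Ctrl64h. Vegfd, a growth factor of lymphatic vessels, measured 6.11, 5.88 and 6.21 in Ctrl4h, 8.72, 9.67 and 8.49 in VPA64h and 10.91, 11.22 and 11.01 in Ctrl64h. Lox, lysyl oxidase, which cross-links collagen, measured 7.87, 6.94 and 7.80 in Ctrl4h, 9.15, 9.21 and 9.34 in VPA64h and 11.04, 10.86 and 10.99 in Ctrl64h. In both, no 2 groups overlapped. Adamts5, an aggrecan-cleaving protease, was 3.64-fold above Ctrl4h, Arxes2 4.39-fold, Gask1b 3.42-fold, Gdf6, a relative of the BMPs, 2.55-fold, the kinase Dmpk 2.49-fold and the glutamate transporter Slc1a6 2.48-fold. The mitotic genes Prc1 and Tpx2, Acta2, Angpt1, Epha3 and the retinoic acid-making Aldh1a2 were of this kind too. The call for Angpt1 was lost without VPA64h replicate 2.

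Between the controls after a fall in culture lay 19 probe sets, but 14 of them are among the 19 probe sets of Srsy, a family of near-identical Y-linked copies whose signals cannot be told apart. This count depended on single arrays: it was 4 without Ctrl64h replicate 2, 5 without VPA64h replicate 2 and 12 without VPA64h replicate 1. Established genes in it were Gem, Egr2 and Egr1. Gem, a small GTPase, measured 10.04, 9.83 and 9.81 in Ctrl4h, 8.24, 8.19 and 8.30 in VPA64h and 7.09, 7.22 and 6.92 in Ctrl64h. Egr2, an immediate early transcription factor, measured 9.63, 9.51 and 10.24 in Ctrl4h, 6.89, 7.02 and 7.53 in VPA64h and 6.17, 5.71 and 6.11 in Ctrl64h. Its relative Egr1 measured 9.48, 9.03 and 9.73, then 8.22, 8.29 and 8.66 in VPA64h and 7.05, 6.37 and 6.69 in Ctrl64h, and its difference from Ctrl4h of -1.03 lost the call without Ctrl4h replicate 1, Ctrl4h replicate 3, VPA64h replicate 1 or VPA64h replicate 2.

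Against this residue stand genes that culture changed and that lay within 2-fold of Ctrl4h in treated cells. Ccn5, a matricellular protein, measured 7.01, 7.26 and 7.15 in Ctrl4h, 7.24, 7.71 and 7.01 in VPA64h and 10.25, 9.93 and 9.86 in Ctrl64h. Cdh3, P-cadherin, measured 6.83, 7.02 and 7.11, then 6.94, 7.21 and 6.95, and in Ctrl64h 9.35, 9.89 and 9.44. For both, treated and Ctrl4h arrays overlapped. Aard and Popdc2 were 0.60 and 0.68 above Ctrl4h. Among genes that fell in culture, Hhip, which binds hedgehog ligands, measured 8.14, 8.21 and 8.32 in Ctrl4h, 8.21, 7.93 and 8.16 in VPA64h and 6.04, 6.76 and 6.70 in Ctrl64h. Rab39b, Nabp1, Gsap and Rrp12 lay -0.39, -0.54, -0.60 and -0.81 from Ctrl4h, all with intervals within 2-fold.

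**Figure D5:**
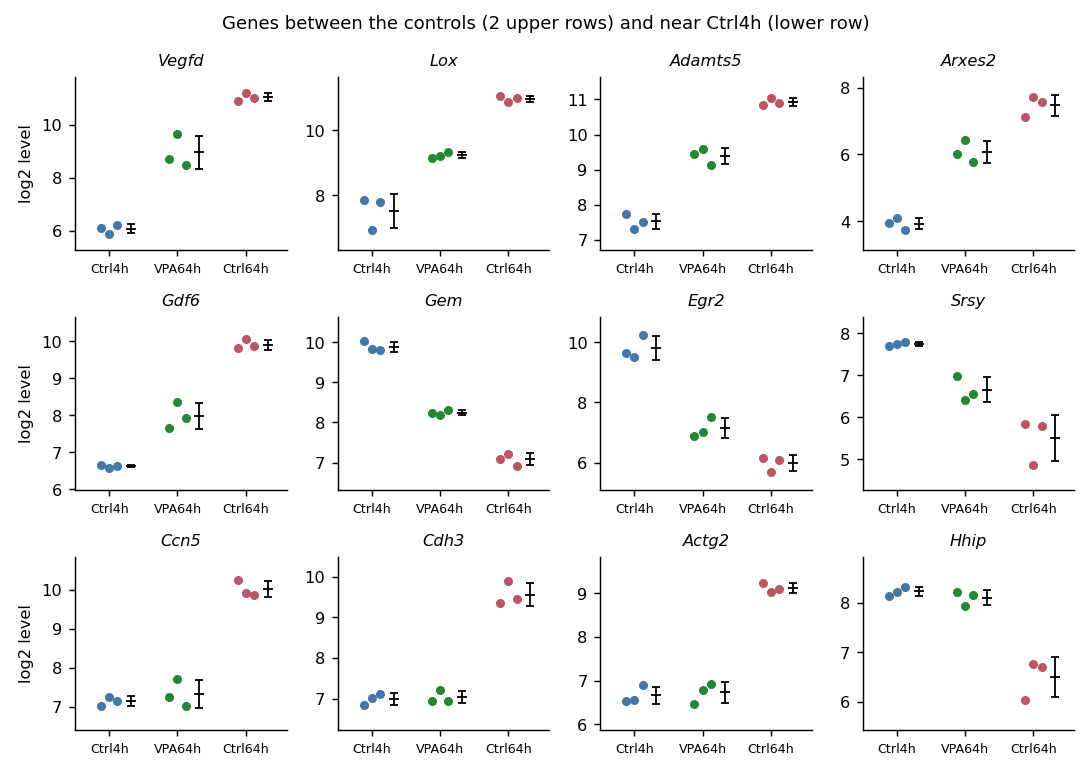
Log2 level on each array (points) and mean with SD (black) in Ctrl4h, VPA64h and Ctrl64h, n = 3 each, for genes between the controls and, in the lowest row, genes within 2-fold of Ctrl4h, with a separate axis range in each panel. Vegfd lies between 8.49 and 9.67 in VPA64h, apart from both controls, while Cdh3 lies between 6.83 and 7.21 in Ctrl4h and VPA64h alike.

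The focal adhesion genes Pxn and Vcl were 0.46 and 0.39 above Ctrl4h, and the gelatinase Mmp2, at 8.95, 8.99 and 9.10 against 9.91, 9.96 and 10.07, was 1.96-fold higher (adjusted p = 2.05e-06), short of the 2-fold limit.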

How the data were processed

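Probe intensities were read on Affymetrix Mouse Gene arrays, and the authors deposited log2 values made by RMA (background correction, quantile normalisation and summarisation of probes). For this step the paper names GeneSpring GX, whereas the processing notes of the submitters give Affymetrix Expression Console. Scanner files were not used here. The log2 values were taken as deposited.

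Probe sets were paired with symbols through the platform annotation: 21789 had exactly 1 symbol, 1621 several and 12147 none. The 23410 with at least 1 were fitted with limma (version 3.58.1, R 4.3.3; lmFit and eBayes, 1 fit of 14 arrays in 5 groups), two-sided, with Benjamini-Hochberg adjustment over those 23410. Calls needed a 2-fold change besides an adjusted p under 0.05, the limits of the paper. For a listed gene with several probe sets, the set with the highest mean was used. Arrays give no counts, so their number limits the precision. The fit was tested on simulated data.

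The samples compared, the gene lists and the naming rule were chosen with earlier results of these data known, and no list was tested as a set. Of 772 list entries 46 had no probe set. Genes named are the 14 largest increases and 14 largest decreases among called probe sets with an established symbol and no overlap of arrays. Also named are the 8 farthest from both controls in each class and 6 near Ctrl4h in each direction. The genes the paper names and up to 4 a list were added, and the text gives a part of all these. Genes named as members of a class beyond these were taken from its full list after their values were seen.

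Deviations from the group means of arrays with the same replicate number correlated over 0.1 in every pair of Ctrl4h and VPA64h (r = 0.138, 0.18 and 0.107) and of Ctrl64h and VPA64h (0.163, 0.158 and 0.171), but not of Ctrl4h and Ctrl64h (0.0307, 0.0236 and 0.11). The numbers come from the titles, which state no shared isolation. Printed values are from the fit without a replicate block, and the fit with it was an alternative.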

Additional observations from a re-analysis of the deposited data

How the results depend on the processing

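The counts were recomputed under 17 alternatives: 8 settings and 9 fits that each left out 1 array. With a fold limit of 1.5 in place of 2, 3259 probe sets were higher and 1709 lower than in Ctrl4h, 456 were above both controls, 169 below both, and 173 and 84 lay between them after a rise or a fall in culture. With arrays centred on 16 housekeeping genes these 6 counts were 1398, 549, 80, 47, 34 and 18. With the replicate number as a block (replicate block) they were 1486, 499, 96, 38, 27 and 20, and the pairing changed no count by over 1.5 times. Leaving out an array gave 1443 to 1560 higher, 474 to 569 lower, 84 to 106 above both, 34 to 43 below both and 26 to 30 between after a rise. After a fall the count ranged from 4 to 22, since most of these probe sets are copies of Srsy near the 2-fold limit. Of 272 probe sets named by the rule 146 were called, 8 lost the call in at least 1 alternative (Alb, Angpt1, Cdh5, Egr1, Irf1, Itgb5, Srsy and Tie1), 8 gained it and 0 changed direction. This gene by gene check followed the call against Ctrl4h only. Membership above, below or between the controls also needs the call against Ctrl64h, which was not followed for single genes. The number of arrays, 3 a group, limits what can be seen: 1390 probe sets were not called and had intervals that crossed 2-fold, and calls near the limit can have such intervals too.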
